A study of Nothobranchius furzeri with 24 samples.

Results

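Whole brains of 4 female and 4 male turquoise killifish (*Nothobranchius furzeri*) aged 73 days post hatch (dph) were compared across all genes expressed in them. These 8 fish were all the fish of that age among 24, the others being 4 of each sex of 39 dph and 4 of each sex of 108 dph. All were wild fish of the strain MZM_A41, netted in natural pools, and gave 1 stranded poly(A) RNA library per fish. The age of a wild fish is an estimate, made by the study from the time its pool filled and from its ear stones, and the stage of the breeding cycle of each female is not given in the sources used here. The comparison asks which genes differed between the sexes at the middle age, by which fish each difference was carried, and whether it was also seen in the younger and the older fish.

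Sex differences in the brain of bony fishes are best known for aromatase, the enzyme that makes oestrogens from androgens and that is made in the brain by radial glia, the stem-like glial cells that line the ventricles. In the turquoise killifish sex is genetic, males being XY, and the sex-determining gene is a copy of GDF6, next to which lies SYBU. SYBU encodes syntabulin, an adaptor that links the motor kinesin to cargo bound for the synapse.

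Reads assigned to genes numbered 17169450 to 18226850 in the females and 16984426 to 18975375 in the males, so depth differed little between the groups. Levels are given as CPM, the counts of a gene relative to 1000000 reads of the scaled library of each fish, and the 18343 genes with enough reads were tested with edgeR. No gene passed a false discovery rate (FDR) of 0.05 between the sexes, 0 of 18343 genes tested (0%), and at an unadjusted p under 0.05 edgeR gave 877 genes, 4.78% of those tested, with 541 (2.95%) higher and 336 (1.83%) lower in females. DESeq2, the second tool, called 27 genes (0.147%), 22 of them (0.12%) higher and 5 (0.0273%) lower in females. Its split changed with single fish, with 8 genes higher and 8 lower without female replicate 1, and 14 higher and 15 lower without male replicate 1. Without any other single fish more genes were higher than lower in females. Examples are 22 higher and 13 lower without female replicate 2, and 82 higher and 12 lower without female replicate 4. Levels did not overlap between the groups in 520 genes (2.83%), with all females above all males in 273 (1.49%) and all females below all males in 247 (1.35%). Chance alone would leave a share of about 0.0286 of genes without overlap, and about 0.05 under the unadjusted p threshold. Both shares seen were near these, so a lack of overlap in a single gene is not by itself evidence of a sex difference. Most genes were close to equal: the median log2 fold change of females over males was -0.0038, the median of its absolute size was 0.10, and 94.9% of genes differed by less than 1.5-fold.

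**Figure D1:**
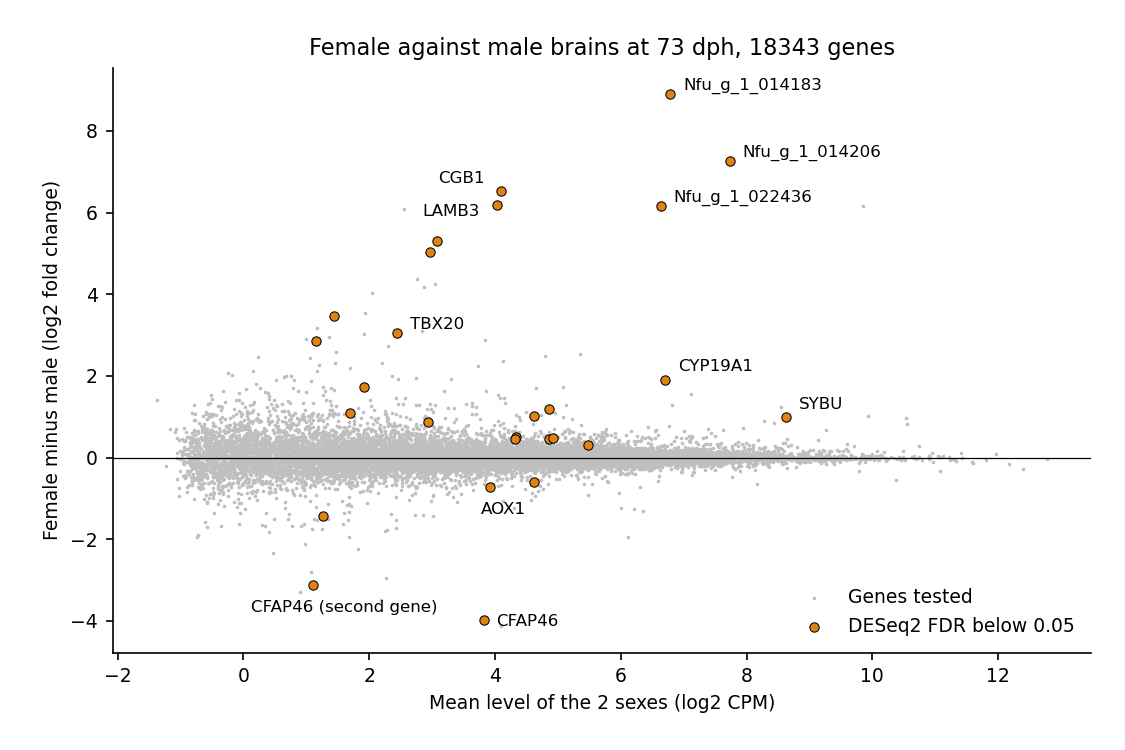
Mean level of the sexes (x axis, log2 CPM) against the log2 fold change of females over males (y axis) for the 18343 genes tested, each point 1 gene. Grey points hug the zero line, the 27 genes called by DESeq2 (orange) include CFAP46 far below it and a group of genes far above it, and no gene passed edgeR's FDR.

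The sexes overlapped on each of the first 3 axes of variation among the brains. The first principal component of log2 CPM held 24.1% of the variance and set male replicate 4 apart at a score of -52.5, and female replicate 2 at -26.2. The second component held 18.5%. Females scored 28.2, 33.8, 11.5 and -7.38 on it, and males scored -21.7, 3.80, -22.5 and -25.8. The groups overlapped through female replicate 4 and male replicate 2, and the difference in means did not pass (exact permutation test, two-sided, p = 0.0571, adjusted over 3 components p = 0.171, where 4 against 4 fish cannot give less than 0.0286). For PC1 and PC3 the exact p was 0.714 and 0.971.

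**Figure D2:**
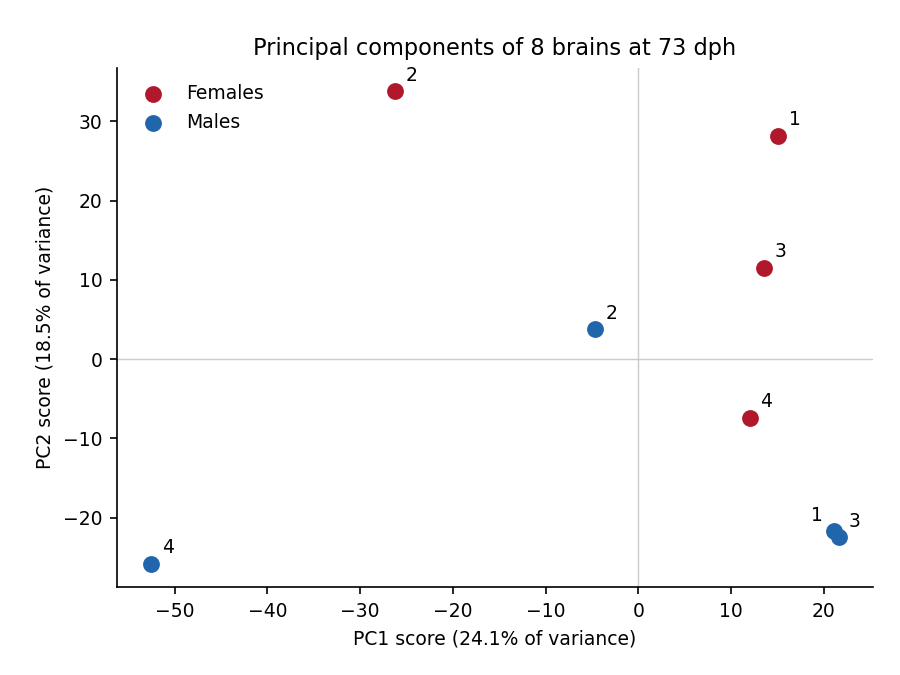
Scores of the 8 brains on the first (x axis) and second (y axis) principal component of log2 CPM, with females in red, males in blue and the replicate number beside each point. Male replicate 4 lies alone at the left, and on the vertical axis female replicate 4 (-7.38) lies below male replicate 2 (3.80).

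Aromatase and SYBU were among the 10 genes of smallest p with higher levels in females. The aromatase gene CYP19A1 (Nfu_g_1_007967) had 141, 189, 122 and 209 CPM in females, against 88.2, 29.1, 29.8 and 28.7 CPM in males. Every female was above every male, and male replicate 1 was apart from the other males. Female brains averaged 165 ± 40.6 CPM and male brains 44.0 ± 29.5 CPM (SD, n = 4 each). The log2 fold change was 1.91 ± 0.39 (SE, as for all log2 fold changes below), with an FDR of 0.915 by edgeR and 0.0286 by DESeq2. Without male replicate 1 it was 2.50 with an edgeR FDR of 0.0173. A second aromatase gene, Nfu_g_1_016264, which carries the symbol CYP19A1A, was too low to be tested, at 0.281 to 0.438 CPM in females and 0.222 to 3.04 CPM in males.

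SYBU (Nfu_g_1_016781) had 579, 538, 424 and 572 CPM in female brains, against 306, 245, 330 and 186 CPM in male brains. The lowest female was above the highest male. The means were 528 ± 71.9 CPM in females and 267 ± 64.8 CPM in males (SD, n = 4 each). The log2 fold change was 0.98 ± 0.18, with an FDR of 0.915 by edgeR and 0.000266 by DESeq2. Per length of transcript, SYBU averaged 144 RPKM (reads relative to gene length and library size, as deposited) in females and 73.2 RPKM in males, and CYP19A1 averaged 110 RPKM in females and 29.5 RPKM in males, so that aromatase was the lower of these genes in either sex on this scale. Of the 20 genes on each side of SYBU in a RefSeq assembly, 8 of 40 could be matched by name. None of them passed in edgeR or was without overlap, beside 0% and 2.83% of all genes tested. Their log2 fold changes ran from -0.20 (SALL3) to 0.24 (TTK).

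The other genes with a name among these 10 were MSANTD4, NDE1, CRTAC1, GLRB and CTGF. MSANTD4 (Nfu_g_1_000583), which encodes a Myb/SANT-like DNA-binding domain protein, had 35.0, 35.5, 23.7 and 37.4 CPM in females, against 13.4, 14.1, 15.2 and 22.4 CPM in males. Its log2 fold change was 1.02 ± 0.20, with an FDR of 0.915 by edgeR and 0.00317 by DESeq2. NDE1 (Nfu_g_1_016203), a regulator of the motor dynein in dividing and migrating neural cells, averaged 4.41 CPM in females and 2.08 CPM in males. The extracellular matrix protein gene CRTAC1 (Nfu_g_1_018186) had 32.3, 32.8, 36.5 and 39.2 CPM in females, against 22.5, 24.8, 25.8 and 28.6 CPM in males. GLRB (Nfu_g_1_013804), the beta subunit that anchors glycine receptors at inhibitory synapses, averaged 23.0 CPM in females and 16.8 CPM in males. The averages of CTGF (Nfu_g_1_012746), a secreted matrix-associated signalling protein, were 23.6 CPM in females and 16.8 CPM in males. These 4 genes did not overlap between the sexes, had log2 fold changes of 1.08 ± 0.23, 0.47 ± 0.10, 0.45 ± 0.10 and 0.50 ± 0.11 in this order, and passed in DESeq2 with FDR of 0.0371, 0.0371, 0.0458 and 0.0371 but not in edgeR (FDR 0.915).

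Genes without a name made up the rest of the 10. Nfu_g_1_015565 had 42.1, 22.2, 47.0 and 49.4 CPM in females, against 16.4, 22.0, 18.3 and 13.9 CPM in males. Female replicate 2 and male replicate 2 all but met. Nfu_g_1_000987 averaged 33.6 CPM in females and 24.5 CPM in males, and Nfu_g_1_006249 averaged 9.93 CPM in females and 5.42 CPM in males. All 3 passed in DESeq2 (FDR 0.00341, 0.0258 and 0.0219) and none in edgeR (FDR 0.915). LRP5 (Nfu_g_1_005969), a co-receptor for Wnt ligands, and Nfu_g_1_006237 were also without overlap and called by DESeq2 (FDR 0.0371 for each). LRP5 averaged 49.2 CPM in females and 40.1 CPM in males, and Nfu_g_1_006237 averaged 5.83 CPM in females and 1.76 CPM in males.

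The gene of smallest p in the whole comparison was lower in females. CFAP46 (Nfu_g_1_005613, symbol TTC40), which encodes a protein of the central apparatus of motile cilia, had 3.08, 1.57, 1.09 and 1.01 CPM in females, against 12.5, 19.7, 39.8 and 34.4 CPM in males. The lowest male was above the highest female, and the males spread over a wider range. Females averaged 1.69 ± 0.96 CPM and males 26.6 ± 12.7 CPM (SD, n = 4 each). The log2 fold change was -3.98 ± 0.47, with an FDR of 0.211 by edgeR and 7.02e-17 by DESeq2. Without male replicate 1 the edgeR FDR was 0.0419 at a log2 fold change of -4.21. A second gene with the same name, Nfu_g_1_002141, had 0.929, 0.112, 0.328 and 0.393 CPM in females, against 2.49, 2.73, 5.00 and 5.27 CPM in males, and a log2 fold change of -3.12 ± 0.52 (FDR 0.915 by edgeR, 4.36e-05 by DESeq2). In both genes male replicates 3 and 4 were above male replicates 1 and 2. Reads were placed at most once by the authors' mapping, so reads shared by these genes could not be told apart.

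The other named genes of smallest p with lower levels in females were FEZ2, AOX1, RNF11 and ZFAT. FEZ2 (Nfu_g_1_009829), a relative of a kinesin adaptor of axon growth, had 19.8, 20.8, 19.9 and 18.0 CPM in females, against 35.4, 28.8, 28.9 and 25.9 CPM in males, a log2 fold change of -0.60 ± 0.11. AOX1 (Nfu_g_1_022477), an aldehyde oxidase, had 12.0, 10.9, 10.6 and 12.1 CPM in females, against 21.8, 20.1, 14.9 and 18.4 CPM in males, a log2 fold change of -0.72 ± 0.13. Females lay within a narrow band in both genes. RNF11 (Nfu_g_1_022716), a RING finger protein that takes part in ubiquitin ligase complexes, averaged 1.29 CPM in females and 3.52 CPM in males (log2 fold change -1.44 ± 0.27). FEZ2, AOX1 and RNF11 passed in DESeq2 (FDR 0.00341, 0.00318 and 0.0146). ZFAT (Nfu_g_1_013487), a zinc finger transcription factor, averaged 28.7 CPM in females and 39.6 CPM in males and passed in neither tool (FDR 0.915 by edgeR, 0.0561 by DESeq2). The unnamed Nfu_g_1_008270, Nfu_g_1_010906, Nfu_g_1_013022 and Nfu_g_1_017500 completed the 10. They had log2 fold changes of -0.36, -1.91, -1.63 and -0.34, no overlap between the sexes, and no call by either tool.

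**Figure D3:**
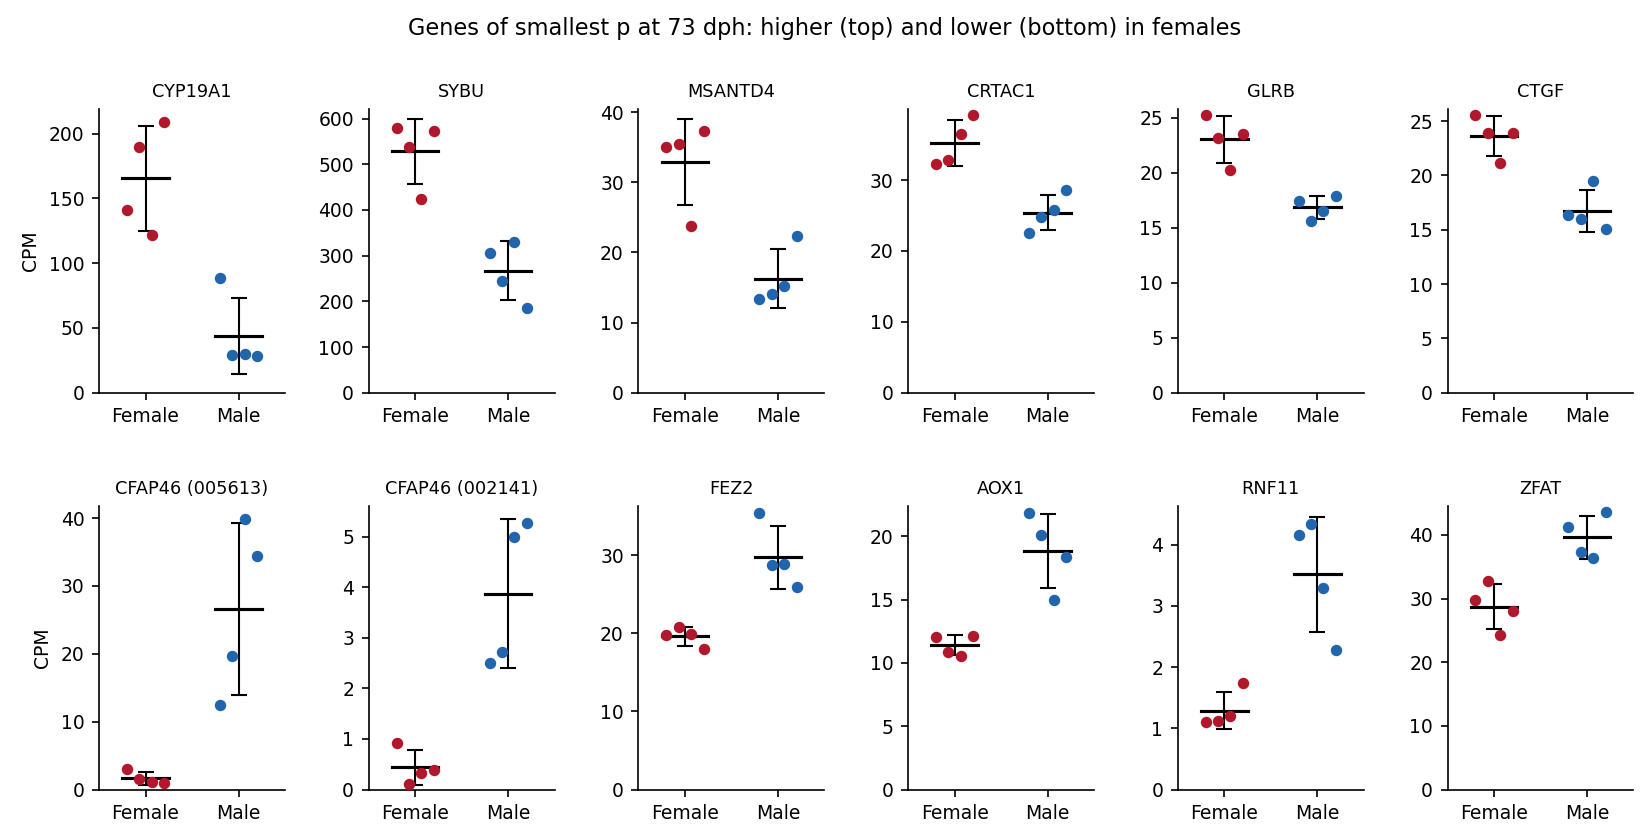
CPM (y axis, from 0) of each fish at 73 dph for 6 named genes among the 10 of smallest p with higher levels in females (top row, NDE1 not drawn) and the 6 named genes among those with lower levels (bottom row). Females are at the left and males at the right of each panel, bars are the mean and SD of 4 fish, and in every panel the groups do not overlap.

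Among named genes of a mean log2 CPM of at least 1, no overlap and an unadjusted p under 0.05, the 5 with the most positive fold change were TBX20, CYP19A1, NT5DC4, GLDN and TJP3. NT5DC4 (Nfu_g_1_006779), of the nucleotidase family, averaged 7.93 CPM in females and 2.88 CPM in males. GLDN (Nfu_g_1_008012), known in mammals for clustering sodium channels at nodes of myelinated axons, had 15.2, 8.79, 8.32 and 6.69 CPM in females, against 3.17, 5.17, 5.18 and 2.61 CPM in males. The tight junction protein gene TJP3 (Nfu_g_1_016008) averaged 7.03 CPM in females and 3.28 CPM in males. None of these 3 passed in edgeR (FDR 0.915 for each) or DESeq2 (FDR 0.079, 0.0543 and 0.0886). The 5 with the most negative fold change were CFAP46, RNF11, KIF13A, AOX1 and TBCEL. KIF13A (Nfu_g_1_016502), a kinesin motor, had 31.1, 51.7, 44.5 and 47.7 CPM in females, against 55.6, 210, 81.8 and 72.2 CPM in males. TBCEL (Nfu_g_1_003405), a tubulin-binding protein, had 14.8, 10.5, 11.9 and 12.9 CPM in females, against 14.9, 33.3, 16.2 and 17.5 CPM in males. Male replicate 2 was far above the other males in both. Without that fish their log2 fold changes were -0.68 for KIF13A and -0.37 for TBCEL, against -1.26 and -0.71 with it, and neither passed over the 8 fish (FDR 0.979 and 0.995 by edgeR, 0.492 and 0.536 by DESeq2).

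Large differences rested on some fish more than on others in either sex. More than 2-fold separated the group values of 299 genes (1.63%), 214 of them higher and 85 lower in females. There were 225 higher and 223 lower without female replicates 1 and 2, and 231 higher and 243 lower without female replicates 1 and 3. These pairs were chosen after their values were seen, and no other pair was left out. The fits had fewer females and tested 18735 and 18711 genes, against 18343 with all 8 fish. They therefore cannot tell whether these females carried the excess of higher genes. The groups did not overlap in 33 of the 214 and in 22 of the 85, beside 1.49% and 1.35% of all genes tested. In 67 of the 214 genes (31.3%) the highest female was over 10 times the lowest female, against 1.24% of all genes tested. In 26 of the 85 genes (30.6%) the highest male was over 10 times the lowest male, against 1.32% of all genes tested. Both sets were picked by these same values, a choice that favours genes with extreme fish and genes whose groups lie apart. The shares therefore describe the sets and are not independent evidence. The highest female was replicate 1 in 74 of the 214, replicate 3 in 57, replicate 2 in 56 and replicate 4 in 27. Among the 22 genes called higher in females by DESeq2 there were 9 with such a spread, and 0 among the 5 called lower.

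One such set was high in female replicates 1 and 2 and held hormone genes of the pituitary. The gene Nfu_g_1_002728, which carries the symbol PRL and GH1 as its human counterpart and so belongs to the prolactin and growth hormone family, had 2885, 4318, 22.2 and 36.6 CPM in females, against 2.34, 61.6, 4.47 and 32.7 CPM in males. The females divided into a high and a low pair, and the low pair lay within the range of the males. Such high levels were not limited to females at the other ages. The gene ran from 1.87 to 3116 CPM in males and from 3.18 to 3926 CPM in females of 39 dph. In fish of 108 dph it ran from 2.52 to 4414 CPM in males and from 2.14 to 4127 CPM in females. At 73 dph its log2 fold change was 6.17 ± 1.83 (FDR 0.915 by edgeR, 0.0512 by DESeq2). Nfu_g_1_020666, named CGB1 after the human gonadotropin beta chain, had 65.8, 64.9, 0.274 and 4.05 CPM in females, against 0.312, 0.612, 0.176 and 0.326 CPM in males (FDR 0.00213 by DESeq2, 0.915 by edgeR). A gene with the symbol LHB, the beta chain of luteinizing hormone (Nfu_g_1_013489), was left out by the low count filter and showed the same division, with 61.5, 110, 0.219 and 4.05 CPM in females and at most 0.544 CPM in males. The rest of the pattern came from Nfu_g_1_014206 (853, 817, 0.711 and 25.1 CPM in females, 0.675 to 5.01 CPM in males), Nfu_g_1_022436 (478, 297, 0.930 and 6.97 CPM in females, 0.467 to 5.90 CPM in males), Nfu_g_1_010386, TBX20 and COL10A1. TBX20 (Nfu_g_1_011037), a T-box transcription factor best known from heart development, had 9.93, 23.3, 3.23 and 2.42 CPM in females, against 0.623, 1.22, 1.76 and 1.09 CPM in males. These genes were brought together after their values were seen, and the part that the amount of pituitary tissue in each dissected brain had in them was not tested.

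A second set was high in female replicates 1 and 3 and held genes of surface epithelia. Nfu_g_1_014183, with no name, had 357, 0.727, 524 and 1.69 CPM in females, against 0.571, 0.556, 0.529 and 0.163 CPM in males (log2 fold change 8.90 ± 2.16, FDR 0.000106 by DESeq2, 0.915 by edgeR). A keratin gene named KRT32 (Nfu_g_1_015969) had 14.7, 1.29, 35.2 and 0.730 CPM in females and 0.412 to 0.945 CPM in males. Female replicates 2 and 4 were far below replicates 1 and 3 in both genes. LAMB3 (Nfu_g_1_013511), a chain of the laminin that fastens epithelium to its basement membrane, had 13.8, 24.4, 91.4 and 0.112 CPM in females, against 0.364, 1.22, 0.118 and 0.0544 CPM in males. LAMB3 was thus also high in female replicate 2 and passed in DESeq2 (FDR 0.0295). Over the 10 genes of the epithelium and skin list the summed level was 121, 51.1, 202 and 28.9 CPM in females, against 39.6, 30.6, 35.5 and 31.0 CPM in males. KRT32 is itself a member of this list. All 8 of its members that were tested had fold changes above 0, with a median log2 fold change of 2.07. With higher levels in females, 5 of the 8 had an unadjusted p under 0.05, beside 2.95% of all genes tested, and 0 passed in edgeR. Of the 8, 0 were without overlap, beside 1.49% of all genes tested with all females above all males. Nfu_g_1_014183, KRT32 and LAMB3 were likewise brought together after their values were seen. Whether epithelium adhering to some brains had a part in the levels of these genes and of the list was not tested.

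**Figure D4:**
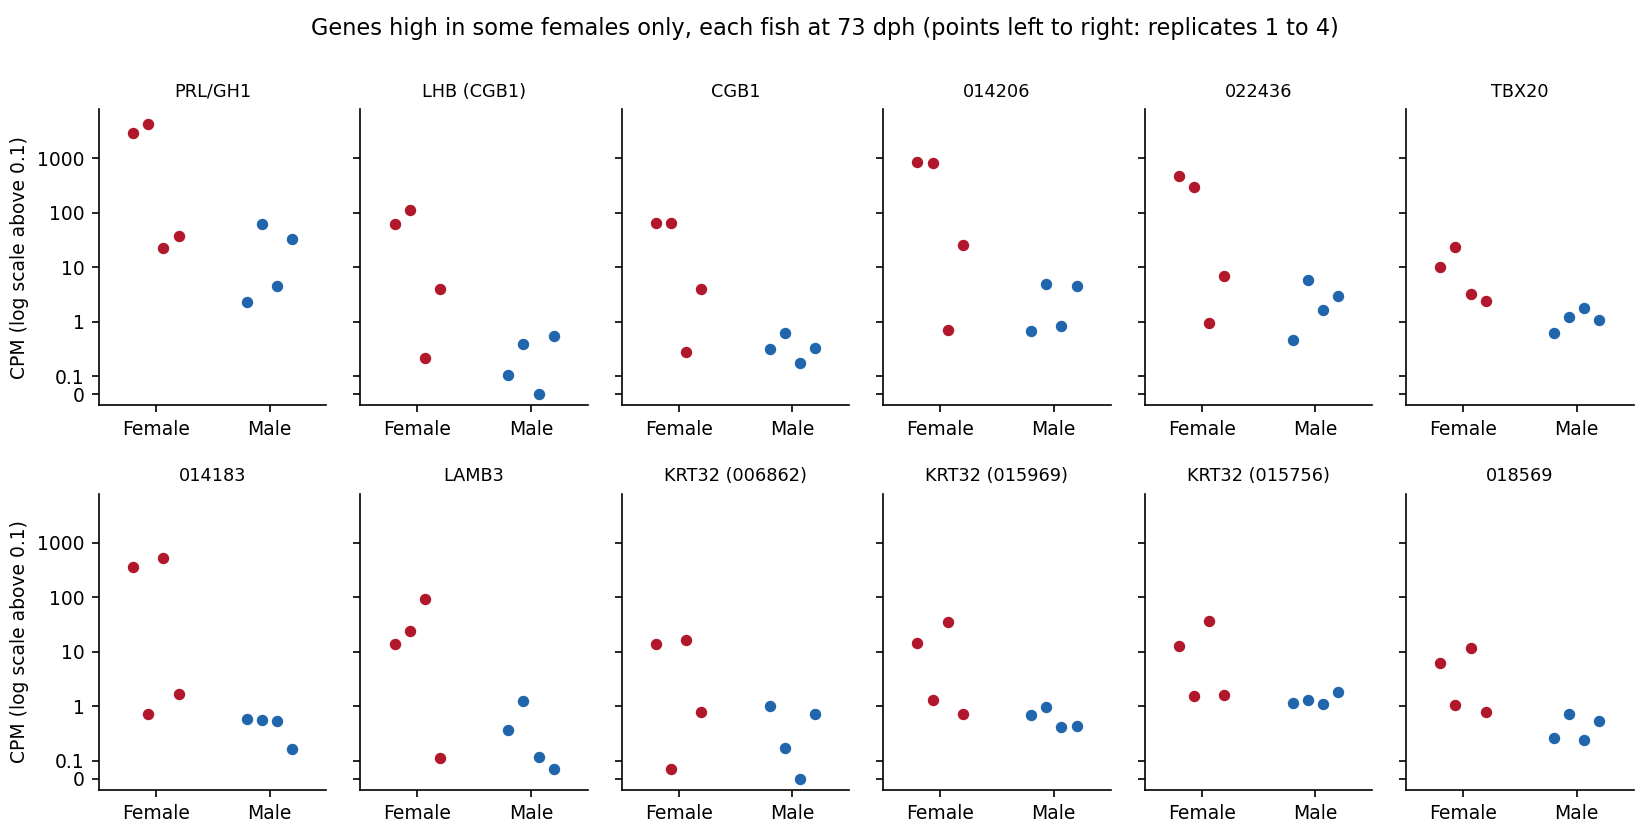
CPM of each fish at 73 dph (y axis, log scale above 0.1) for 12 genes with an uneven spread among females, with females at the left and males at the right of each panel and replicates 1 to 4 from left to right within a sex. In the upper row the points of female replicates 1 and 2 are the high ones, for example 2885 and 4318 CPM for the gene labelled PRL/GH1, and in most panels of the lower row those of replicates 1 and 3 (codes are the ends of Nfu_g_1 identifiers).

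The comparison was also run, after these values were seen, without female replicates 1 and 2, and without replicates 1 and 3. DESeq2 called 20 genes without replicates 1 and 2 and 16 without replicates 1 and 3. In edgeR 1 gene passed without replicates 1 and 2 and 0 without replicates 1 and 3, with 661 and 667 genes at an unadjusted p under 0.05. The gene was COL28A1 (Nfu_g_1_011093), a collagen gene singled out here after its values were seen, at 0.871, 0.560, 19.2 and 23.3 CPM in females, against 0.260, 0.445, 0.529 and 0.435 CPM in males. Only 3 of the 4 females had enough of its reads for the filter, so COL28A1 was not among the genes tested over the 8 fish. Female replicates 1 and 2, left out in that fit, were its lowest females. It thus entered that fit and passed through the females where it is high, which is no independent evidence of a sex difference.

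Genes of steroid synthesis and response had fold changes on both sides of 0, with 8 above and 10 below. Of 20 matched genes 18 were tested, and their median log2 fold change was -0.01. Of these 18, 1 did not overlap with higher and 1 with lower levels in females, beside 1.49% and 1.35% of all genes tested. The first was CYP19A1. The second was SRD5A2 (Nfu_g_1_016123), the 5-alpha-reductase that makes dihydrotestosterone, with 0.639, 0.336, 0.164 and 0.562 CPM in females, against 0.935, 1.00, 0.823 and 0.870 CPM in males (log2 fold change -1.09 ± 0.39, FDR 0.995 by edgeR). These levels are of few reads. The oestrogen receptor gene with the symbol ESR1 (Nfu_g_1_018712) had 7.53 to 9.68 CPM in females and 7.17 to 9.02 CPM in males, overlapping throughout. NCOA3 (Nfu_g_1_001446), a coactivator of nuclear receptors, was next by p, at a log2 fold change of -0.27 ± 0.17.

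Of the 10 tested genes for hypothalamic and pituitary hormones and their processing, 4 had fold changes above 0 and 6 below. The precursor of vasotocin, the fish form of vasopressin, named AVP (Nfu_g_1_009307), had 46.6, 20.7, 35.4 and 49.7 CPM in females, against 74.2, 77.8, 41.5 and 167 CPM in males. The highest females overlapped the lowest male, and the log2 fold change of -1.24 ± 0.41 did not pass (FDR 0.995 by edgeR, 0.669 by DESeq2). CCK (Nfu_g_1_001713), the precursor of cholecystokinin, had 12.1, 10.7, 10.4 and 13.8 CPM in females, against 10.3, 8.62, 9.47 and 9.68 CPM in males, which nearly touched. Its log2 fold change was 0.30 ± 0.13 (FDR 0.995 by edgeR).

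In the lists of immediate early, circadian clock, cholesterol synthesis, heat shock, cell cycle, oxidative phosphorylation, ribosomal protein and interferon response genes no member passed in edgeR or in DESeq2. The immediate early genes, which are switched on by neuronal activity or stress, had a median log2 fold change of 0.11 over 19 tested, with 17 above 0. KLF4 (Nfu_g_1_006610), a transcription factor of this list, had 40.1, 45.8, 52.0 and 42.1 CPM in females, against 31.3, 36.4, 28.2 and 18.1 CPM in males and did not overlap (log2 fold change 0.66 ± 0.19, FDR 0.915 by edgeR, 0.184 by DESeq2). ATF3 and FOSL1 followed it in this list, with log2 fold changes of 0.64 and 1.05 and overlapping groups. For the 24 circadian clock genes the median was 0.07, with 19 above 0. HLF (Nfu_g_1_023410, symbol TEFA), a clock output transcription factor, had 113, 87.4, 83.3 and 96.5 CPM in females, against 64.3, 74.0, 58.9 and 73.0 CPM in males (log2 fold change 0.49 ± 0.11, FDR 0.915 by edgeR, 0.0512 by DESeq2). The study dissected its fish in the morning, and the hour for each fish is not given in the sources used here. TEF and RORB, next by p, had 0.25 and 0.30 with overlap.

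Among cholesterol synthesis genes 11 of 12 tested had fold changes below 0. The median log2 fold change over the 12 was -0.22, beside -0.0038 for all genes tested. Of the 12, 1 was lower in females at an unadjusted p under 0.05 by edgeR, beside 1.83% of all genes tested. Members of a list were measured in the same fish, so the signs within this or any other list are not independent observations. DHCR7 (Nfu_g_1_023485), which makes the last step to cholesterol, had 14.0, 14.9, 15.1 and 15.8 CPM in females, against 20.5, 14.8, 19.9 and 20.2 CPM in males, of which replicate 2 was among the females. NSDHL and CYP51A1 had -0.41 and -0.23. NSDHL was the 1 gene of the 12 without overlap, beside 1.35% of all genes tested with all females below all males. None of these passed (FDR 0.995 by edgeR for each). Cell cycle genes had a median of 0.11 over 24 tested, with 17 above 0 and 7 below. The medians of heat shock genes (0.02, 22 tested), oxidative phosphorylation genes (-0.01, 51 tested) and cytosolic ribosomal protein genes (-0.0068, 70 tested) lay close to that of all genes. Smallest by p were DNAJB1 (0.41), HSPA4 (-0.10) and HSPA4L (0.12) for heat shock, and CCNB1 (0.35), TTK (0.24) and CCNB2 (0.18) for the cell cycle. For the ribosome they were RPS16 (0.14), RPLP2 (0.10) and RPL19 (0.13). Among oxidative phosphorylation genes, UQCRC2 (Nfu_g_1_023451), a core subunit of respiratory complex III, had 219, 188, 199 and 211 CPM in females, against 233, 247, 243 and 228 CPM in males, without overlap (log2 fold change -0.22 ± 0.07, FDR 0.915 by edgeR). COX5A and ATP5H had -0.10 and -0.09.

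Among interferon response genes, RSAD2 (Nfu_g_1_015349), the antiviral protein viperin, had 15.5, 8.23, 5.74 and 3.76 CPM in females, against 2.60, 3.23, 3.82 and 3.70 CPM in males (log2 fold change 1.31 ± 0.39, FDR 0.915 by edgeR). Female replicate 1 was the highest fish, and the median over the 7 tested genes of the list was 0.21. IRF9 had a log2 fold change of 0.32.

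The same fish had the most haemoglobin. The genes Nfu_g_1_007654 and Nfu_g_1_007641, named HBG1 after a human globin and near copies of each other, had 2483 and 1034 CPM in female replicate 1, against 485 to 924 CPM and 168 to 336 CPM in males. The blood list of 6 genes summed to 3743, 1605, 1180 and 1545 CPM in females and 813, 1435, 1044 and 826 CPM in males. All 6 had fold changes above 0, with a median log2 fold change of 0.59. With higher levels in females, 3 of them had an unadjusted p under 0.05 by edgeR, beside 2.95% of all genes tested. None passed in either tool, and 0 of the 6 were without overlap, beside 1.49% of all genes tested with all females above all males. Brain cell markers differed little: neuronal markers summed to 6279 to 6737 CPM in females and 6284 to 6679 CPM in males, those of oligodendrocytes to 6178 to 8903 CPM in females and 6181 to 8803 CPM in males, and those of radial glia to 5507 to 7107 CPM in females and 5515 to 8126 CPM in males. Within the last list GFAP (Nfu_g_1_007538), an intermediate filament of radial glia, had 1134, 1256, 862 and 1081 CPM in females, against 1069, 1745, 1380 and 2122 CPM in males, with overlap (log2 fold change -0.54 ± 0.20, FDR 0.995 by edgeR). GFAP had the most negative fold change of the 8 tested genes of that list. Of these, 3 were above 0 and 5 below, with a median log2 fold change of -0.03 and a highest of 0.43. In whole brains fewer cells of a type and less RNA per cell cannot be told apart.

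Few markers of other tissues could be matched. Of the ovary and egg list 1 gene was matched, the egg coat gene ZP4 (Nfu_g_1_012216), with 3.83, 10.0, 0 and 2.25 CPM in females and at most 0.111 CPM in males, below the filter. Of the gonad and egg coat list FOXL2 and AMH, genes of ovary and testis development, had log2 fold changes of 0.13 and 0.38 with overlap. The lists of striated muscle, retina and lens, choroid plexus and meninges, and immune cells summed to 168 to 204, 17.6 to 24.6, 231 to 276 and 4.33 to 17.3 CPM in females, against 148 to 187, 15.6 to 29.2, 151 to 238 and 3.53 to 8.99 CPM in males. In this order the sums held 6, 2, 1 and 1 genes, matched from 12, 6, 3 and 8 listed symbols. The choroid plexus and meninges gene had a log2 fold change of 0.34 with an unadjusted p under 0.05 by edgeR. It overlapped between the sexes and passed in neither tool.

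The 36 genes that the study listed as dependent on sex were chosen on these fish among others, so their direction here is not independent evidence. Of these 24 had enough reads at 73 dph, 17 with higher and 7 with lower levels in females, and 8 and 5 of them did not overlap, beside 1.49% and 1.35% of all genes tested. The median log2 fold change was 0.41, and 0 passed in edgeR while 7 were called by DESeq2, beside 0.147% of all genes. Besides those described above, LIN37, YPEL5 and C16orf89 were above in every female (log2 fold changes 0.48, 0.31 and 0.51), and TMEM104 and AFAP1L1 were below (-0.40 and -0.28).

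The fish of 39 and 108 dph allowed each difference to be read in other animals. In a fit of all 24 fish, sex at 39 dph gave 1 gene past the FDR, which was CYP19A1, and at 108 dph 2, which were CYP19A1 and DNAJC17, against 0 at 73 dph. The log2 fold change for aromatase was 2.18 ± 0.35 in fish of 39 dph, 1.90 ± 0.34 in those of 73 dph and 2.49 ± 0.35 in those of 108 dph. SYBU had 0.61 ± 0.20 at 39 dph, 0.98 ± 0.20 at 73 dph and 0.57 ± 0.20 at 108 dph. Among the genes that also kept their sign at all 3 ages were Nfu_g_1_006237, GLDN, GLRB, ZFAT, KIF13A, MSANTD4, Nfu_g_1_000987 and TBCEL. The CFAP46 gene Nfu_g_1_002141 did so too, at -1.35 ± 0.85 at 39 dph and -0.46 ± 0.84 at 108 dph. Of the 20 genes of smallest p at 73 dph, 15 had the same sign at 39 dph, 15 at 108 dph and 14 at both, beside 53.7%, 51.7% and 28.8% of all genes. Of the 27 genes called by DESeq2 these counts were 14, 19 and 13.

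Other genes had a sex difference at 73 dph unlike that at the other ages in size or direction, but no gene passed edgeR's test between ages. The sex difference at 73 dph was set against the mean of those at 39 and 108 dph, and 0 of 19358 genes (0%) passed in edgeR, with 886 at an unadjusted p under 0.05 (4.58%). DESeq2 called 2, COL28A1 and DNAJC17. At 73 dph COL28A1 was high in female replicates 3 and 4 alone. CFAP46 (Nfu_g_1_005613) had 2.64 to 14.8 CPM in females and 3.89 to 21.8 CPM in males at 39 dph, and 0.273 to 4.65 CPM in females and 1.73 to 4.81 CPM in males at 108 dph, so the sexes overlapped at both. Its difference between ages was -3.58 ± 0.83 on the log2 scale (FDR 0.958 by edgeR). DNAJC17 (Nfu_g_1_014967), a co-chaperone of the splicing machinery, had 50.3, 47.8, 54.4 and 61.8 CPM in females, against 43.5, 43.9, 34.4 and 38.4 CPM in males at 73 dph, a log2 fold change of 0.42 ± 0.11, and at 108 dph its log2 fold change was -0.67 ± 0.11. The difference between ages was 0.69 for DNAJC17, 0.77 for GRAPL, an adaptor protein gene, and -1.56 for RNF11, whose log2 fold changes at 39 and 108 dph were 0.20 and 0.04. Of the genes high in some females of 73 dph, the PRL gene Nfu_g_1_002728 had a log2 fold change of -0.28 at 39 dph and -0.80 at 108 dph, CGB1 (Nfu_g_1_020666) had -1.29 and -2.10, Nfu_g_1_014183 had -0.92 and 5.72, and LAMB3 had -1.22 and 3.34. None of these passed at either age (FDR 0.566 or above by edgeR).

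**Figure D5:**
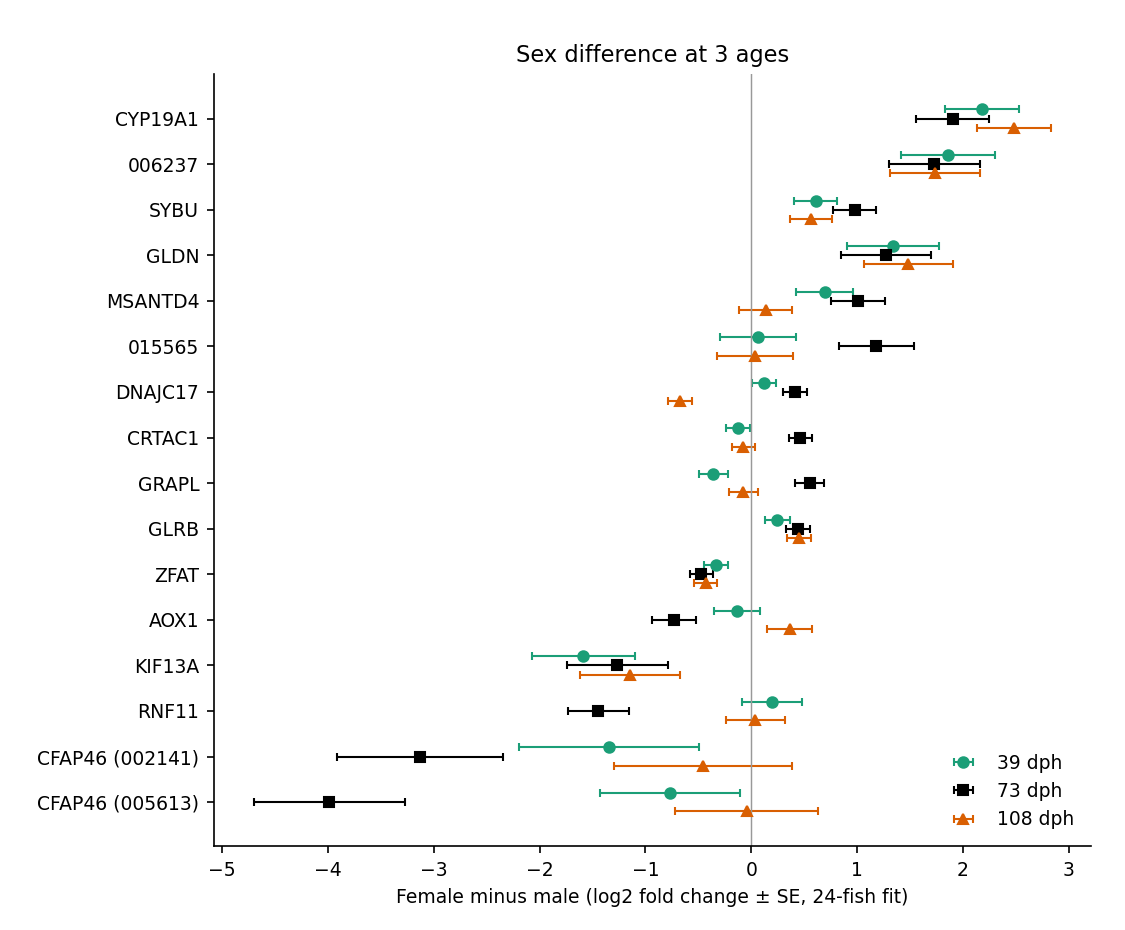
Log2 fold change of females over males with its SE (x axis, fit of 24 fish) for 16 genes (rows) at 39 dph (green circles), 73 dph (black squares) and 108 dph (orange triangles). CYP19A1, Nfu_g_1_006237, SYBU and GLDN lie right of 0 at every age, whereas the CFAP46 gene Nfu_g_1_005613 is at -3.98 at 73 dph and at -0.04 at 108 dph.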

How the data were processed

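The authors sequenced 1 stranded library per brain (51 cycles, single end), converted base calls with bcl2fastq 1.8.4, mapped reads with TopHat2 2.1.0 at most once to the hardmasked NFINgb genome of *N. furzeri* and counted sense-strand reads per gene with featureCounts 1.5.0 (versions from the submitters' processing notes). The deposited counts (26739 genes) were used for all tests. The RPKM values deposited by the authors, counts relative to gene length and library size, were used to set levels of different genes side by side. The deposited RPM table was not used. Sex and age came from the labels.

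Genes passing filterByExpr (minimum count 10) were scaled by TMM and tested with edgeR 4.0.16 (quasi-likelihood F test, R 4.3.3), with Benjamini-Hochberg FDR over all 18343 genes. A model of 6 group means over 24 fish (19358 genes) gave the other ages. DESeq2 1.42.0 gave the second test. The tests were checked on simulated counts. Principal components used log2 CPM (prior count 2) and exact permutation tests. SE is the log2 fold change over the square root of F.

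Names came from human counterparts and symbols in the study's supplementary tables, made for genes the study selected (39.68% of tested genes). Neighbours of SYBU came from RefSeq assembly NfurGRZ-RIMD1, which is not the authors' build. Named were the 10 genes of smallest p per direction, the 5 largest named differences per direction without overlap, up to 3 genes per list, CYP19A1 and SYBU, and 5 genes of the test between ages. The genes called by DESeq2 were added after their values were seen. Members, lists and tests were chosen with earlier results of these data known. Alternatives changed the tool, scaling, filter, model, FDR or fish. Results for 2 genes are not reported here.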

Additional observations from a re-analysis of the deposited data

Results flagged for a closer look

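A fish far from the others of its group was looked for in 60 groups of 4 (the genes named by rank, total reads and component scores of each sex) by Dixon's criterion, and 6 groups held one, where chance gives about 1 in 20 groups. CYP19A1 (Nfu_g_1_007967) was 88.2 CPM in male replicate 1, against 29.8 CPM in the next male. KIF13A (Nfu_g_1_016502) was 210 CPM in male replicate 2, against 81.8 CPM in the next male, and TBCEL (Nfu_g_1_003405) was 33.3 CPM in the same fish, against 17.5 CPM. RNF11 (Nfu_g_1_022716) was 1.74 CPM in female replicate 4, against 1.20 CPM in the next female. The score on the first component was -26.2 in female replicate 2, against 12.0 in the nearest female, and that on the second was 3.80 in male replicate 2, against -21.7 in the nearest male.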

How the results depend on the processing

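The count of 0 genes between the sexes by edgeR was also 0 with DESeq2 size factors, no filter, the study's filter, the fit of 24 fish, an FDR of 0.10 and, added after seeing the data, robust estimation of the spread. Leaving out 1 fish gave 0 to 2 genes, the 2 being CFAP46 and CYP19A1 without male replicate 1. DESeq2 gave 27, and with 1 fish left out (also added after seeing the data) it gave 16, 35, 45 and 94 without female replicates 1 to 4 in turn and 29, 53, 35 and 32 without male replicates 1 to 4, with 8 of the 27 called in all 8 fits. Without female replicates 1 and 2 edgeR gave 1 and DESeq2 20, and without female replicates 1 and 3 DESeq2 gave 16, also added later. Why DESeq2 called more genes was not tested. For the difference between ages the edgeR count was 0 with DESeq2 size factors, no filter, each of 24 fish left out and without the 2 shallowest libraries, and DESeq2 gave 2. The exact p of the second component was 0.0571 with 500 variable genes and with DESeq2 size factors and 0.0571 to 0.343 with 1 fish left out, the highest without male replicate 4. Of 553 fold changes of 37 genes recomputed under alternatives, 0 turned their sign and 29 passed the threshold in the alternative alone. These genes were picked for their differences in the same fish, which left little room for a change of sign. The 0 is therefore no evidence that the differences would hold in other fish.

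The comparison rests on 4 fish a sex, and a count of 0 does not show that the sexes were alike. No paired analysis was possible because the replicate numbers only name the fish.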
